A study of Mus musculus with 2 samples.

Results

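The gel that covers the intestinal epithelium is made by goblet cells. Described here are 10 genes of goblet products, membrane mucins and mucin folding. The values come from 1 culture of mouse intestinal stem cells labelled Stat6 KO and 1 labelled WT. The genes are the secreted and membrane mucins Muc2, Muc13, Muc4 and Muc1, and the mucus partners Fcgbp, Clca1 and Zg16. With them stand the trefoil peptide Tff3, the mucin-folding protein Agr2 and the resistin-like peptide Retnlb. The genes were chosen by symbol, as rows present under the same Entrez gene number in both expression tables, and all 10 of 10 were found among the 18944 genes listed. Of these, 8 reached 1 FPKM in at least 1 library and are called measured. FPKM counts sequenced fragments after division by transcript length and by the total mapped in a library. Comparing it between genes depends on the length used, and between libraries on how similar their RNA make-up is.

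RNA was sequenced from 1 Stat6 KO culture and 1 WT culture, labelled as intestinal stem cells and taken from mice aged 2 months. Both carried Lgr5GFP-CreERT2, an allele in which the Lgr5 locus drives GFP together with a tamoxifen-inducible Cre, and which so marks Lgr5-positive cells. The KO culture was made by lentiviral CRISPR/Cas with guides against Stat6 and a screen for deficient cells, per the labels' protocols. The same protocol text stands under the WT sample, so the virus treatment of the WT culture, and the number of clones or animals behind either culture, cannot be stated from them. With 1 library a genotype no difference below has a replicate check, and no test or error could be computed.

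Goblet cells pack mucin into granules after folding, disulfide bonding and heavy O-glycosylation in the secretory pathway, and release it to form the mucus layer. Membrane mucins stay anchored in the apical surface of absorptive cells and take part in the glycocalyx. IL-4 and IL-13 act through a receptor chain they share, Il4ra, and the transcription factor STAT6, and in the gut and airway IL-13 is known to expand goblet cells and to induce Clca1 and Retnlb. The comparison asks how the transcriptome of the culture labelled Stat6 KO differs from that labelled WT, here for the mucus genes.

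Libraries were compared by the log2 ratio, which is log2((KO FPKM + 1)/(WT FPKM + 1)), and genes count as at least 2-fold higher or lower where it reached 1 in size. The pseudocount of 1 understates the change of low genes. The Stat6 transcript (Entrez gene 20852) stood at 44.2 FPKM in KO and 41.3 FPKM in WT. Cas9 cuts can leave a transcript in place while breaking its reading frame, and the KO label was not checked by this level. Whether the KO culture lacked STAT6 protein was not tested here. The depth fitted to the spacing of low values was 20100000 reads in KO and 20200000 reads in WT. The labels state an average of 59000000 reads per sample, and why the fitted depth is lower was not tested. The FPKM values summed to 496255 in KO and 504214 in WT, and the median log2 ratio of the 12079 measured genes was -0.18. All 13 of 13 Lgr5 stem cell markers were measured, but at a sum of 142.9 FPKM in KO and 237.9 FPKM in WT, with Lgr5 itself at 1.88 and 1.79 FPKM. Much of the gap between the sums lay in Cd44, at 28.8 FPKM in KO and 85.9 FPKM in WT. The median log2 ratio of these markers was -0.35. Of the 13, 2 were at least 2-fold lower, Cd44 and Sox9, where 2.18% of all measured genes were. That count ranged from 1 to 3 over the settings of pseudocount and scaling described below. A ratio above 0 was found for 4 of the 13, and for 3655 of the 12079 measured genes. Of the 13, 6 lay above the median of all measured genes. The 20 enterocyte markers summed to 19679 FPKM in KO and 5777 FPKM in WT. Of the 20, 17 were at least 2-fold higher in KO, where 2.44% of all measured genes were. Both cultures therefore held abundant transcripts of differentiated cells. In such bulk RNA, fewer cells of a type and less RNA per cell cannot be told apart.

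Among the mucus genes 2 stood out, in opposite directions. Clca1, which encodes a secreted protease that processes the mucus gel, was 2.92-fold higher in the KO library, and Agr2, the disulfide isomerase that folds Muc2 in the endoplasmic reticulum, was lower, at 0.484 of its WT level. Of the 8 measured genes, 1 was at least 2-fold higher, where 2.44% of all measured genes were. Likewise 1 of 8 was at least 2-fold lower, where 2.18% of all measured genes were. At a threshold of 1.5-fold 2 of 8 were higher, Clca1 and Muc2, against a background of 5.7%, and 1 of 8 was lower, against 11.4%. At 4-fold 0 were higher and 0 lower, where 0.422% and 0.224% of all measured genes were. All 6 genes within 2-fold had a log2 ratio above 0. Of all 12079 measured genes, 3655 had a log2 ratio above 0 and 8401 had one below it. The median log2 ratio of the 8 was 0.33, which was 0.51 above the median of all measured genes, and 7 of 8 lay above that median.

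**Figure D1:**
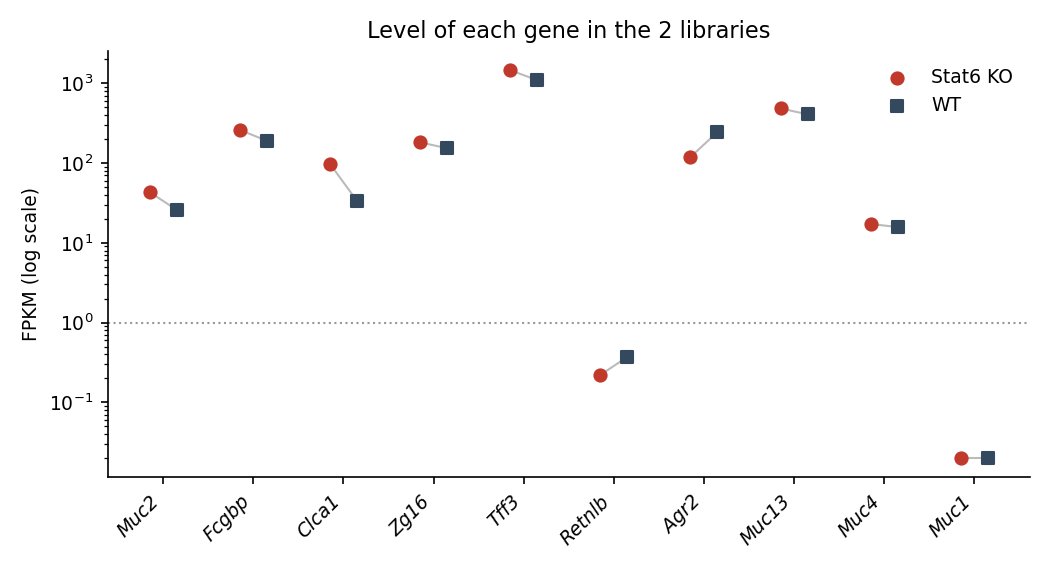
FPKM of each gene on a log axis, with the Stat6 KO library as red circles and the WT library as dark squares, 1 library each, and a dotted line at 1 FPKM. Clca1 stands at 97.8 FPKM in KO and 33.5 FPKM in WT, Agr2 shows the opposite order at 119 and 245 FPKM, and Retnlb and Muc1 lie under the line in both libraries.

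Muc2 (Entrez gene 17831), the gel-forming mucin that builds the intestinal mucus, was at 43.1 FPKM in KO and 25.8 FPKM in WT. That is a 1.67-fold difference and a log2 ratio of 0.72, short of 2-fold. Its ratio was higher than that of 95.8% of all measured genes. Muc2 held rank 1964 among all genes by level in KO and rank 3357 in WT. The FPKM of a mucin depends on the transcript length used, and the annotation behind the deposited values remains not given in the sources used here. The longest Muc2 coding transcript in GENCODE M21 has only 2926 bases, too short to encode the whole mucin, so the level of Muc2 against other genes is less certain than its KO to WT ratio.

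Fcgbp (Entrez gene 215384), a large mucus protein bound into the Muc2 network, was at 260 FPKM in KO and 190 FPKM in WT, with a log2 ratio of 0.45. Zg16 (Entrez gene 69036), a lectin-like protein that binds Gram-positive bacteria in mucus, was at 182 FPKM in KO and 153 FPKM in WT, with a log2 ratio of 0.24. Both were higher in KO by less than 2-fold. Within a library, Fcgbp stood 6.03-fold above Muc2 in KO and 7.36-fold above it in WT, and Zg16 4.21-fold and 5.93-fold above it.

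Tff3 (Entrez gene 21786), the goblet trefoil peptide that helps repair the epithelial surface, was the most abundant of the 10 genes in both libraries. It was at 1463 FPKM in KO, rank 28 of all genes, and at 1094 FPKM in WT, rank 54. Its log2 ratio was 0.42, so it was higher in KO by less than 2-fold. Tff1 and Tff2, the trefoil peptides of stomach mucous cells, were at 0.45 and 0 FPKM in KO and at 0.78 and 0 FPKM in WT.

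Clca1 (Entrez gene 23844) was at 97.8 FPKM in KO and 33.5 FPKM in WT. Its log2 ratio of 1.52 was higher than that of 99.1% of all measured genes. It held rank 875 by level in KO and rank 2672 in WT. None of the 3606 windows of 50 bases, the read length, in its longest coding transcript occurs in a transcript of another gene in GENCODE M21. This covers exact matches only. Alignment with mismatches, or to the annotation behind the deposited values, was not examined. The log2 ratio of Clca1 stayed between 1.42 and 1.76 in all 10 settings of pseudocount, minimum level and scaling that were run. The reported value is among the 10, and a changed minimum level cannot move the ratio of a single gene.

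Agr2 (Entrez gene 23795) was at 119 FPKM in KO and 245 FPKM in WT. Its log2 ratio was -1.04, and 1.94% of all measured genes had a lower one. None of its 735 windows of 50 bases occurs in another gene. The call at 2-fold depended on the scaling. With a trimmed mean of log ratios (TMM) as the scaling factor the log2 ratio was -0.81, with the median of all genes set to 0 it was -0.86, and with the median of pan-epithelial markers set to 0 it was -0.80. The direction was the same in all 10 settings, though those of the minimum level cannot move the ratio.

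Retnlb (Entrez gene 57263), a goblet cell peptide with antibacterial action that is induced in worm infection, was at 0.22 FPKM in KO and 0.37 FPKM in WT. These values stand for about 2.91 and 4.87 reads at the fitted depths, or 8.53 and 14.2 reads if the labels' average were the depth behind the FPKM. At so few reads no difference between the libraries is read from them. Its relative Retnla, known as a STAT6-induced gene of macrophages and airway epithelium, was at 0.09 FPKM in both libraries, or about 1.01 reads in each at the fitted depths. Retnlg was at 0.09 FPKM in KO and listed at 0 in WT.

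Among the membrane mucins found under the symbols listed, Muc13 led. Muc13 (Entrez gene 17063), the most abundant membrane mucin measured in these cultures, was at 484 FPKM in KO and 408 FPKM in WT, with a log2 ratio of 0.24. Muc4 (Entrez gene 140474), which carries an ErbB2-binding region, was at 17.2 FPKM in KO and 15.7 FPKM in WT, with a log2 ratio of 0.12, the smallest in size among the measured genes. The ratio of Muc13 to Muc4 was close in the libraries, at 28.1 in KO and 25.9 in WT. Muc1 (Entrez gene 17829), a membrane mucin of many glandular epithelia, was at 0.02 FPKM in both libraries, which is about 0.89 read in each at the fitted depths. Of 14 other mucins listed, 4 were found in the tables, all under 1 FPKM. Muc3, Muc3a and Muc17 were among those not found under these symbols, so Muc13 could not be set beside them. Muc20 was at 0.22 FPKM in KO and 0.23 FPKM in WT, Muc6 at 0.03 FPKM in both, Mucl1 at 0.07 and 0 FPKM, and Muc5ac at 0 FPKM in KO and 0.01 FPKM in WT.

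**Figure D2:**
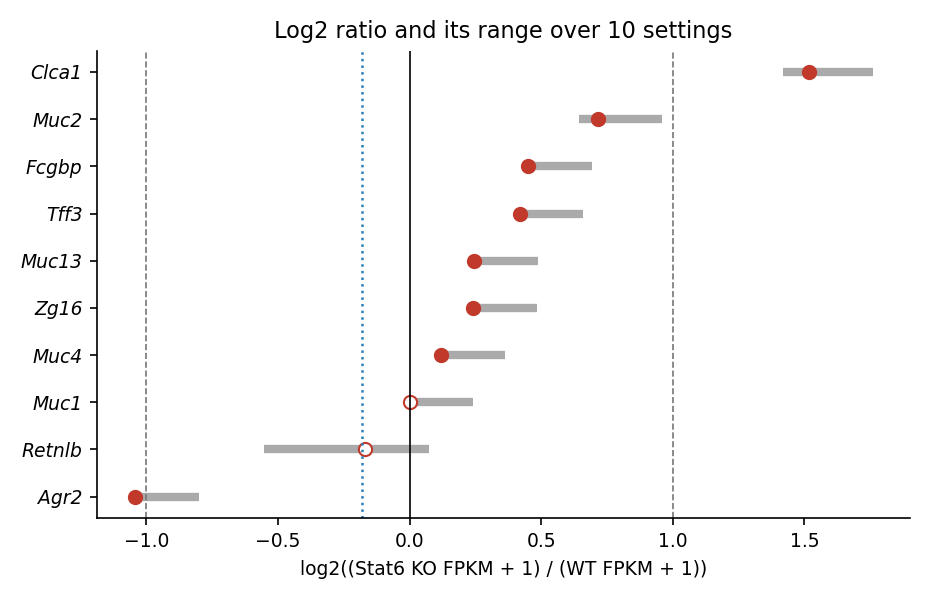
Log2 ratio of KO over WT for each gene (red points, open where the gene is under 1 FPKM in both libraries), with grey bars for the range over 10 settings, dashed lines at 2-fold and a dotted blue line at the median of all measured genes, -0.18. The bar of Clca1 lies wholly beyond 2-fold, from 1.42 to 1.76, while that of Agr2, from -1.05 to -0.80, crosses the line.

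The order of the levels differed between the libraries in the place of Agr2. In KO it ran Tff3, Muc13, Fcgbp, Zg16, Agr2, Clca1, Muc2, Muc4, Retnlb and Muc1. In WT Agr2 stood above Fcgbp and Zg16, and the order of the other genes was the same. With 1 library a genotype no spread is known, so neighbours in this order cannot be told apart. The 10 genes summed to 2666 FPKM in KO and 2167 FPKM in WT, or 0.537% and 0.430% of all FPKM.

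As shares of that sum, which do not depend on the library total, Tff3 made up 54.9% in KO and 50.5% in WT. Agr2 made up 4.46% in KO and 11.3% in WT, and Clca1 3.67% in KO and 1.55% in WT. Muc13 was at 18.2% and 18.8%, Fcgbp at 9.76% and 8.77%, and Zg16 at 6.81% and 7.08%. Shares of the same sum are tied to each other, so a higher share of Tff3 lowers the rest. The ratio of Agr2 to Clca1 within a library needs no scaling, and it was 1.21 in KO and 7.33 in WT. These genes have the lowest and highest log2 ratios of those measured, so a wide contrast follows from the choice of the pair. The ratio of Agr2 to Muc2, the mucin it folds, was 2.75 in KO and 9.50 in WT.

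**Figure D3:**
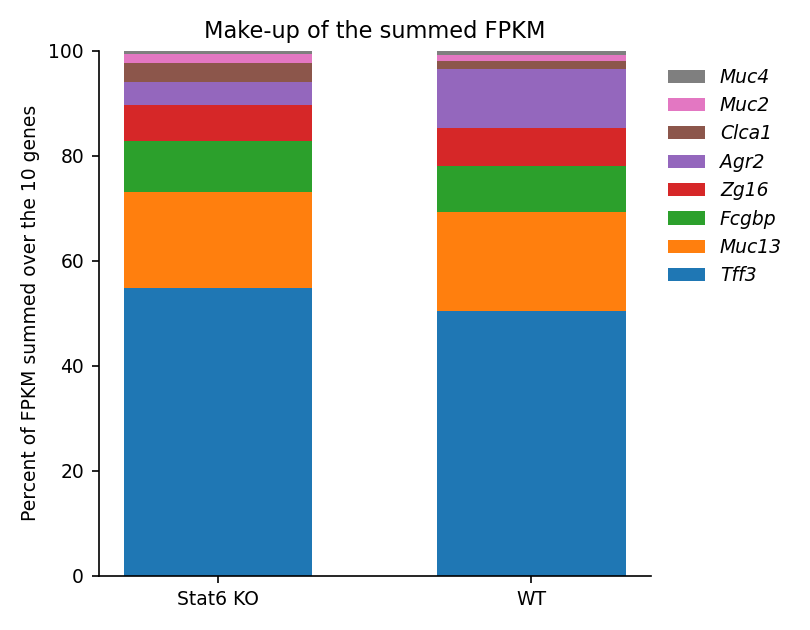
Share of the FPKM summed over the 10 genes that each gene makes up, in percent, for the Stat6 KO library (left) and the WT library (right). Retnlb and Muc1 are too low to be drawn. Agr2, in purple, takes 4.46% in KO and 11.3% in WT, and Clca1, in brown, 3.67% in KO and 1.55% in WT.

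Among the close relatives of Agr2 and Clca1, Agr3, Clca4b and Clca3b differed by at least 2-fold. Agr3, the gene beside Agr2 in the RefSeq gene order and a disulfide isomerase of the same family, was at 1.39 FPKM in KO and 8.28 FPKM in WT. Its log2 ratio of -1.96 lay on the same side as that of Agr2. At the fitted depths these levels stand for about 22.0 and 130.6 reads. On the other side of Agr2, Tspan13 was at 62.3 FPKM in KO and 78.1 FPKM in WT, with a log2 ratio of -0.32, within 2-fold. Txndc12, a more distant member of the Agr family, was at 17.8 FPKM in KO and 20.1 FPKM in WT.

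The Clca genes lie side by side and stood on both sides of the comparison. Clca4b was at 647 FPKM in KO and 236 FPKM in WT, with a log2 ratio of 1.45, close to that of Clca1. Clca3b was at 220 FPKM in KO and 524 FPKM in WT, with a log2 ratio of -1.25. Clca4a, which lies between Clca4b and Clca1, was at 36.9 FPKM in KO and 53.2 FPKM in WT, with a log2 ratio of -0.52. Clca4b thus stood 2.94-fold above Clca3b in KO, while in WT Clca3b stood 2.22-fold above Clca4b. Clca3a1, Clca3a2 and Clca2 were at 0.78, 1.47 and 0.15 FPKM in KO and at 1.58, 1.78 and 0.19 FPKM in WT. Other genes hold 24.8% of the 50-base windows of Clca4b, 41.0% of those of Clca4a and 5.98% of those of Clca3b, so the values of these copies are less certain one by one. Of 19 relatives listed, 12 were found in the tables and 7 were measured, of which 1 was at least 2-fold higher and 2 were at least 2-fold lower, with a median log2 ratio of -0.52.

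**Figure D4:**
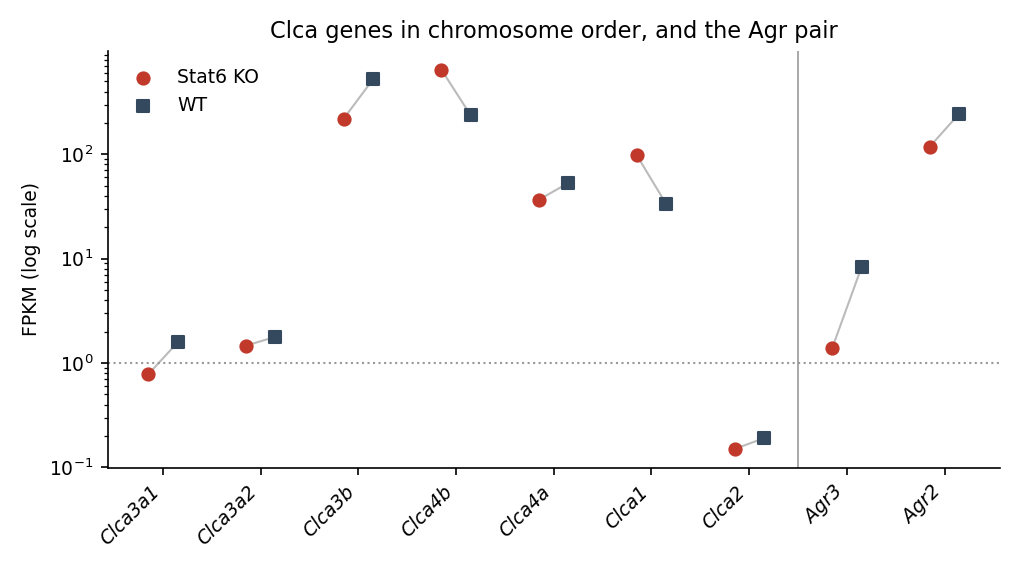
FPKM on a log axis for 7 Clca genes in their order along the chromosome and, right of the line, for Agr3 and Agr2, with the Stat6 KO library as red circles and the WT library as dark squares. Clca4b and Clca1 are higher in KO and Clca3b lower, while Agr3, at 1.39 and 8.28 FPKM, and Agr2 are both lower in KO.

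The 250 bases before the annotated start of transcription were searched for every mucus gene with an entry, and for 9 relatives of Agr2, Clca1 and Retnlb, from RefSeq on build GRCm38.p6. Of the 10 mucus genes, 6 have an entry, and Clca1, Tff3, Zg16 and Retnlb do not. The deposited values were made on mm9, and no position was carried between the builds. The following are shown because Agr2 and Agr3 were both lower in KO and because Clca4b and Clca3b lay on opposite sides. Capitals mark matches to the motifs searched on both strands, namely the STAT half-sites TTC and GAA with any 4 bases between them (the spacing STAT6 prefers) or any 3 (other STAT factors), GATAA (GATA factors), TATAAA (the TATA box) and TGTTTAC (forkhead factors).
Agr2, chr12:35992675-35992924, plus strand: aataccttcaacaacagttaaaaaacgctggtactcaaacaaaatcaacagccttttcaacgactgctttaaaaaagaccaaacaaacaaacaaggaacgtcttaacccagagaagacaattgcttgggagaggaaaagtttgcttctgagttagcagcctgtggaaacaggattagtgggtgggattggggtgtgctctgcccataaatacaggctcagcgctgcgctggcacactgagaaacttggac
Agr3, chr12:35925371-35925620, plus strand: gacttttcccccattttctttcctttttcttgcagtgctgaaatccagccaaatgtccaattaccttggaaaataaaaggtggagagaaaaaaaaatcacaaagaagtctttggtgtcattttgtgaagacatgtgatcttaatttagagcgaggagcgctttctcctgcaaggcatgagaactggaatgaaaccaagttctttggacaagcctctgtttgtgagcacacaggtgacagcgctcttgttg
Clca4b, chr3:144932530-144932779, minus strand: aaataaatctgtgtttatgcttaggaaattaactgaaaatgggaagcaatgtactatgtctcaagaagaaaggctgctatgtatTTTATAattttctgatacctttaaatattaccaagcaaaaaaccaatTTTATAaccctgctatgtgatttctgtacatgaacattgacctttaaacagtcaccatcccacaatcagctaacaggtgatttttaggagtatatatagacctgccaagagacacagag
Clca3b, chr3:144849303-144849552, minus strand: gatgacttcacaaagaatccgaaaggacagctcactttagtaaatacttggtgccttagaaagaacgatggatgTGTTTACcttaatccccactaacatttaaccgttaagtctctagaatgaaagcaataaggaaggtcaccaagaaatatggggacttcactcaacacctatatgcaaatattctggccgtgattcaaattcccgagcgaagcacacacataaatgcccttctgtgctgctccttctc

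Agr2 and Agr3 held none of the 5 motifs in this window. Clca4b held TATAAA, read on the opposite strand, at 166 and 119 bases before the start, and Clca3b held TGTTTAC at 176 bases before it. Of all 32851 promoters in the table, 12.4% hold TATAAA and 3.17% hold TGTTTAC in the same window. These are matches of letters and not measured sites.

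Muc2, Muc13 and Retnla are shown next, Muc2 as the gel-forming mucin, and Muc13 and Retnla because they hold a STAT-type match. Muc13 has a pair of annotated starts, and the one given here is the upstream one.
Muc2, chr7:141690090-141690339, plus strand: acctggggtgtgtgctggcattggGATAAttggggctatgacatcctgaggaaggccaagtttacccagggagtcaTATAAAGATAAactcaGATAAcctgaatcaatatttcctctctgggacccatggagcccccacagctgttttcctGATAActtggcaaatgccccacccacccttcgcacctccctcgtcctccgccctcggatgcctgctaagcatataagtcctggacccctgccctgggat
Muc13, chr16:33793787-33794036, plus strand: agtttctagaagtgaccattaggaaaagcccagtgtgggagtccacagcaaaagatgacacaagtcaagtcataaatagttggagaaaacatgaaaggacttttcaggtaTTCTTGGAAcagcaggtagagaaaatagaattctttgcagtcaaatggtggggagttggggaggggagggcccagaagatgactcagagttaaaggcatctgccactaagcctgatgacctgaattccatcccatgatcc
Retnla, chr16:48842359-48842608, plus strand: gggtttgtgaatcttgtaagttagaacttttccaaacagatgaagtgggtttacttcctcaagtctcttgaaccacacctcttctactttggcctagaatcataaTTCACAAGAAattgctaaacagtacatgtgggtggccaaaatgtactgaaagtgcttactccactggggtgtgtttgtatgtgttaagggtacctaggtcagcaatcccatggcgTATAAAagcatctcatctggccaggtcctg

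Muc2 held GATAA at 226, 168, 158 and 99 bases before the start, and TATAAA at 174, joined to the second GATAA. Of all promoters 22.6% hold GATAA. Muc13 held TTC and GAA with 3 bases between at 140 bases before its upstream start, which 7.02% of all promoters hold. Retnla held the 4-base spacing at 145 and TATAAA at 30 bases before its start, where 5.85% of all promoters hold the 4-base spacing. Retnlg, which is not shown, held it at 72 and TGTTTAC at 129 bases before its start. None of the 6 mucus genes with an entry held the 4-base spacing in this window. Muc13, with its STAT-type match, had a log2 ratio of 0.24, and Retnla was at 0.09 FPKM in each library.

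Most other targets of the IL-4 and IL-13 response were low in both libraries or lay within 2-fold between them. Of all 12079 measured genes, 11521 also lay within 2-fold. Of 24 targets listed, 21 were found in the tables and 11 were measured. Their median log2 ratio was 0.37, which was 0.55 above the median of all measured genes, and 10 of 11 lay above that median. Of the 11, 1 was at least 2-fold higher and 0 lower, where 2.44% and 2.18% of all measured genes were. That gene was Pigr, the carrier of IgA across the epithelium, at 452 FPKM in KO and 209 FPKM in WT (log2 ratio 1.11). The chemokine Ccl24 was at 1.5 FPKM in KO and 0.28 FPKM in WT (0.97), which is 5.36-fold without the pseudocount. The count at least 2-fold higher depended on the setting. It was 2 with a pseudocount of 0.1, the TMM factor or values scaled to the same total in each library. It was also 2 with the median of all genes or the pan-epithelial median set to 0. The count at least 2-fold lower was 0 in all 10 settings. At the low end stood the feedback inhibitor Socs1, at 1.71 FPKM in KO and 2.13 FPKM in WT (-0.21), and the receptor chain Il4ra, at 13.8 and 14.2 FPKM (-0.04). Arg1, Chil3 and Il13ra2, classical IL-4 and IL-13 targets in other cells, did not exceed 0.35 FPKM in either library. Of the 9 receptor and STAT6 pathway genes, 1 passed 2-fold, Il2rg, the common gamma chain that blood cell receptors for IL-4 use, at 0.67 FPKM in KO and 2.81 FPKM in WT. That call was lost with a pseudocount of 5, a minimum of 5 FPKM or the pan-epithelial median set to 0. White blood cell markers had a median log2 ratio of -0.85, and whether this bears on Il2rg was not tested. The highest log2 ratio was that of the IL-13 receptor chain Il13ra1, at 42.8 FPKM in KO and 29.6 FPKM in WT (0.52). The culture medium, as the labels list it, names neither IL-4 nor IL-13.

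None of the transcription factors of the goblet lineage reached 2-fold by the log2 ratio as reported. All 11 of 11 were measured, with a median log2 ratio of -0.10. That was 0.08 above the median of all measured genes, and 6 of 11 lay above the latter. Klf4, which goblet cells need to mature, was highest, at 51.3 FPKM in KO and 26.4 FPKM in WT (0.93), and it passed 2-fold with the TMM factor. Bhlha15, a factor of secretory cells, followed at 1.38 FPKM in KO and 0.57 FPKM in WT (0.60). That is 2.42-fold without the pseudocount, and 1 of the 11 passed 2-fold with a pseudocount of 0.1. Lowest were the forkhead factors Foxa1, at 14.7 FPKM in KO and 21.7 FPKM in WT (-0.53), and Foxa3, at 12.4 and 17.8 FPKM (-0.49). Atoh1, which opens the secretory fate, was at 10.9 FPKM in KO and 9.39 FPKM in WT, and Spdef, which drives goblet maturation, at 16.6 and 21.4 FPKM, both named after their values were seen.

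Other goblet cell genes likewise lay on both sides. Of 17 measured, 1 was at least 2-fold higher and 1 at least 2-fold lower, with a median of 0.08. That was 0.26 above the median of all measured genes, and 13 of 17 lay above the latter. Bcas1 was at 3.91 FPKM in KO and 1.22 FPKM in WT (1.15), and Lrrc26, a potassium channel subunit of goblet cells, at 6.16 and 2.79 FPKM (0.92). Gsdmc4, a gasdermin with close copies, was at 1.12 FPKM in KO and 3.36 FPKM in WT (-1.04), a difference that stayed under 2-fold with the TMM factor. The chemokine Ccl6 was at 13.1 FPKM in KO and 21.5 FPKM in WT (-0.67). Over the libraries, the listed genes nearest to Clca1 in level were Nlrp6, at a distance of 0.59 on the log2(FPKM + 1) scale, Fam3b at 0.64 and Pdia6 at 0.76, among 101 genes. Those nearest to Agr2 were Spink4 at 0.92, Pdia3 at 1.08 and Itln1 at 1.28. A distance over 1 library a genotype mostly reflects the level.

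Genes that fold, pack and release mucin were nearly all within 2-fold, as were most measured genes. Of 23 measured, 1 was at least 2-fold higher and 0 lower, with a median of 0.00. That was 0.18 above the median of all measured genes, and 19 of 23 lay above the latter. P4hb, a disulfide isomerase of the endoplasmic reticulum like Agr2, was at 1005 FPKM in KO and 494 FPKM in WT (1.02), on the other side from Agr2. The endoplasmic reticulum stress protein Creld2 was at 51.7 FPKM in KO and 27.1 FPKM in WT (0.91). With the TMM factor 5 of the 23 passed 2-fold. The lowest log2 ratio belonged to the granule GTPase Rab27b, at 2.44 FPKM in KO and 4.18 FPKM in WT (-0.59).

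Enzymes that build the O-glycans of mucins had a median of 0.03, with 1 of 24 measured at least 2-fold higher and 1 at least 2-fold lower. That median was 0.21 above the median of all measured genes, and 18 of 24 lay above the latter. Gal3st2, which adds sulfate to galactose, was at 43.4 FPKM in KO and 13.3 FPKM in WT (1.63). B4galnt3, which adds N-acetylgalactosamine, was at 11.3 FPKM in KO and 6.08 FPKM in WT (0.80). St3gal1, the sialyltransferase that caps core O-glycans, was at 4.09 FPKM in KO and 17.3 FPKM in WT (-1.84). Galnt4, which starts O-glycans, was at 23.3 FPKM in KO and 29.7 FPKM in WT (-0.34).

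**Figure D5:**
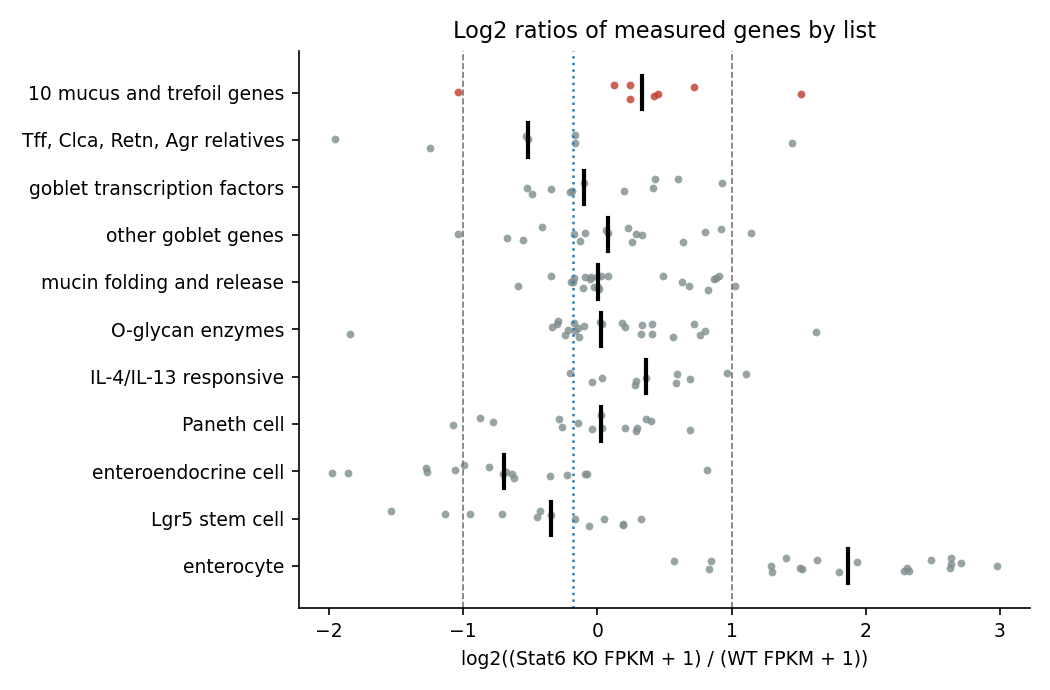
Log2 ratios of KO over WT for the measured genes of each list (points), with the median as a black bar, dashed lines at 2-fold and a dotted blue line at the median of all measured genes, -0.18. The mucus and trefoil genes, in red, have a median of 0.33, the enterocyte markers 1.87 and the enteroendocrine markers -0.69.

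Markers of other cells give the setting of these values. For comparison, 2.44% of all measured genes were at least 2-fold higher and 2.18% at least 2-fold lower. Enterocyte markers had a median log2 ratio of 1.87, with levels from 6.44 to 7580 FPKM in KO and from 0.53 to 2173 FPKM in WT. Enteroendocrine markers had a median of -0.69, with 5 of 16 at least 2-fold lower and a sum of 582.7 FPKM in KO and 1074 FPKM in WT. Paneth cell markers had a median of 0.02 and summed to 2820 FPKM in KO and 2769 FPKM in WT, with 1 of 15, Pla2g2a, at least 2-fold lower, at 110.6 and 235 FPKM, though not with the TMM factor. Tuft cell markers had a median of -0.16, with 0 of 9 past 2-fold. White blood cell and stromal markers had medians of -0.85 and -0.67, with 3 of 9 and 1 of 5 at least 2-fold lower. The stromal count was 0 with the TMM factor or the pan-epithelial median set to 0, and the white blood cell count was 1 with a pseudocount of 5 or a minimum of 5 FPKM and 6 with a pseudocount of 0.1. Of the gastric mucous cell markers, Tff2, Gkn3 and Vsig1 were listed at 0 in both libraries, and the transcription factor Gata4, also made by the small intestine, was the only one at or above 1 FPKM, at 59.4 FPKM in KO and 40.4 FPKM in WT. The part of these other cells in the values of the mucus genes was not tested.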

How the data were processed

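RNA was measured by sequencing in 1 Stat6 KO and 1 WT culture. The authors deposited FPKM values per the file headers, 1 per gene and to 2 decimals. HISAT, Bowtie2, RSEM and the build mm9 were used, per the submitters' processing notes, with versions, roles and the annotation not given in the sources used here. Tables were joined on Entrez gene number. Log2 ratios used a pseudocount of 1, and genes that reached 1 FPKM in either library. No test, error or p-value was computed, since there was 1 library a genotype. Calculations used Python 3.11.15, numpy 2.4.6 and pandas 2.3.3 and were tested on simulated data.

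The genes described and all lists were chosen with earlier results of these data known. Text names the 10 genes and, of each other pathway list, the genes past 2-fold and the 2 highest and 2 lowest log2 ratios. Some of the genes this selects are not reported here. Of marker lists, summaries and defining genes are given. Alternatives were other pseudocounts, minimum levels, scalings and fold thresholds.

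Depth was estimated from the spacing of low FPKM values, over genes with 1 GENCODE M21 transcript of 200 to 1500 bases, searching from 8000000 to 59000000 reads. Of values up to about 4 reads, 54.1% in KO and 57.4% in WT then lay within 0.1 read of a whole number, where 20% would if evenly spread. Since the depth was fitted to whole reads, these shares do not check it independently.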

Additional observations from a re-analysis of the deposited data

How the results depend on the processing

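No paired analysis was possible because each genotype had 1 library, and for the same reason no library could be left out. Single log2 ratios are described as close when within 1.5-fold of the reported value. A changed minimum level cannot move them, and the 10 settings include the reported one. Agr2 was lower in KO in all 10 settings but under 2-fold in 3, at -0.81 with the TMM-type factor, -0.86 with the median of all genes set to 0 and -0.80 with the median of the pan-epithelial markers set to 0. In these 3 settings 0 genes of the 10 were at least 2-fold lower. At a threshold of 1.5-fold 2 were higher (Clca1 and Muc2), and at 4-fold 0 were higher and 0 lower. Without Tff3 in the sum, the log2 of the KO over WT share changed sign for Muc13, to 0.0798, and for Zg16, to 0.0786. The median over the 8 measured genes ranged from 0.33 to 0.57, and over all 10, with no minimum level, it was 0.24. Over all genes the count at least 2-fold lower was 263 as reported, 604 with a pseudocount of 0.1, 63 with 5, 150 with a minimum of 5 FPKM, 171 with the TMM-type factor, 160 with the median set to 0 and 136 with the pan-epithelial median set to 0. The count at least 2-fold higher was 295, and 144, 437 and 466 with a pseudocount of 5, the TMM-type factor and the pan-epithelial median. The scalings moved the median of all genes from -0.18 to 0.06 at most, and Clca3a2 and Txndc12, at -0.17 each, lie within that shift. Depth limits Retnlb, Muc1 and Retnla, which rest on under 5 reads a library at the fitted depths.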

Other observations

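The mucus genes were set beside the genes that flank them in the RefSeq order, 3 on each side. Around Agr2, apart from Agr3, the largest log2 ratio in size was that of Bzw2, a translation regulator, at 38.9 FPKM in KO and 61.6 FPKM in WT (-0.65). Around Muc13 it was that of Umps, an enzyme of pyrimidine synthesis, at 10.5 FPKM in KO and 18.6 FPKM in WT (-0.77), on the other side from Muc13. Beside Muc4, the kinase gene Tnk2 was at 14.9 FPKM in KO and 24.5 FPKM in WT (-0.68). Near Retnlb, the predicted gene Gm5485 was at 32.2 FPKM in KO and 14.01 FPKM in WT (1.15), past 2-fold on the higher side. Not among these flanking genes, Il33, an alarmin that drives type 2 immunity, was at 14.6 FPKM in KO and 11.9 FPKM in WT. All of these genes were named after their values were seen.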
